A study of Homo sapiens with 6 samples.

Results

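Adhesion molecules of the immunoglobulin family and the cadherin family were examined as a set of 10 genes in the established glioblastoma line U87 (human) after treatment with rutaecarpine. The 10 genes were taken by name from the deposited expression table of 60671 genes, and all 10 were found. They are ICAM1, VCAM1, NCAM1, L1CAM, ALCAM, MCAM and CADM1 of the immunoglobulin family, and CDH2, CDH11 and CDH13 of the cadherin family. The treated group received 100 μM rutaecarpine for 48 h (n = 3) and the control group received the solvent, 0.1% DMSO, for 48 h (n = 3). Rutaecarpine is an alkaloid of Evodia that was studied as an activator of the aryl hydrocarbon receptor, and it was given from a DMSO stock in serum-free medium, so both groups had DMSO. The study asked which genes related to migration changed with the compound. Its migration assays used lower concentrations of rutaecarpine than the 100 μM of these libraries. All libraries came from the same cell line, and the labels do not say whether replicates were separate cultures, so p values measure the spread between these libraries.

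Adhesion molecules of the immunoglobulin family carry immunoglobulin-like domains outside the cell and bind either the same molecule on a neighbouring cell or a different partner. ICAM1 and VCAM1 are ligands of leukocyte integrins and are known as genes that inflammatory cytokines switch on through NF-kappaB. Classical cadherins bind each other in the presence of calcium and are tied to actin by catenins inside the cell. In glial tumours N-cadherin (CDH2) is the usual classical cadherin, and E-cadherin (CDH1) is the epithelial form.

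RNA was sequenced and values were given in TPM, which correct each gene for its length and scale each library to a fixed total, so levels of different genes can be compared but read numbers are not known. Among the controls, the library of replicate 3 stood apart. Its median log2(TPM + 1) over the 14377 genes tested was 3.56, against 3.81 to 4.00 in the other 5 libraries. It gave the lowest control value for 62.3% of the genes tested and for 9 of the 10 adhesion molecules. Results for the 10 genes, and the counts of the gene lists, are therefore given with and without it. Of the markers of the line, VIM and CD44 were high, GFAP was low at a mean of 3.98 TPM in the control group, and SOX2 and S100B did not exceed 0.25 TPM in any library. Of 6 leukocyte markers, AIF1 was at 0 in all 6 libraries, PTPRC did not exceed 0.03 TPM, and CD3E, CD14 and ITGAM did not exceed 0.54 TPM. The remaining marker, CSF1R, was at 5.98 to 8.33 TPM, and it made up most of the list's summed 6.42 to 8.59 TPM, with the groups overlapping. The summed TPM of 6 endothelial markers was between 2.52 and 4.71 and that of 5 epithelial markers between 1.34 and 3.41, and the groups overlapped for both.

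The levels of the 10 transcripts spanned more than 2 orders of magnitude in control cells. CDH13, which encodes T-cadherin, a cadherin held in the membrane by a lipid anchor, was the most abundant at 236 ± 48.7 TPM (SD, n = 3). MCAM (CD146) followed at 121 ± 22.2 TPM and ALCAM (CD166) at 69.1 ± 27.7 TPM. CDH2 was at 24.2 ± 5.99 TPM and ICAM1 at 18.4 ± 1.77 TPM, and the libraries of these neighbours in the order overlapped. Below them were CADM1 at 8.48 ± 0.58, CDH11 at 6.18 ± 0.87, NCAM1 at 5.58 ± 2.02, VCAM1 at 3.33 ± 1.08 and L1CAM at 1.56 ± 0.32 TPM. CDH11 and NCAM1 overlapped, as did NCAM1 and VCAM1, while the other neighbours were apart. After rutaecarpine, CDH13 and MCAM kept the highest places at 232 ± 39.0 and 91.2 ± 16.6 TPM. ICAM1 moved from place 5 to place 3 and CADM1 from place 6 to place 5, while VCAM1 moved from place 9 to place 10. The summed TPM of the 10 genes was 494 ± 110 in control cells and 485 ± 66.4 after rutaecarpine, and the groups overlapped.

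**Figure D1:**
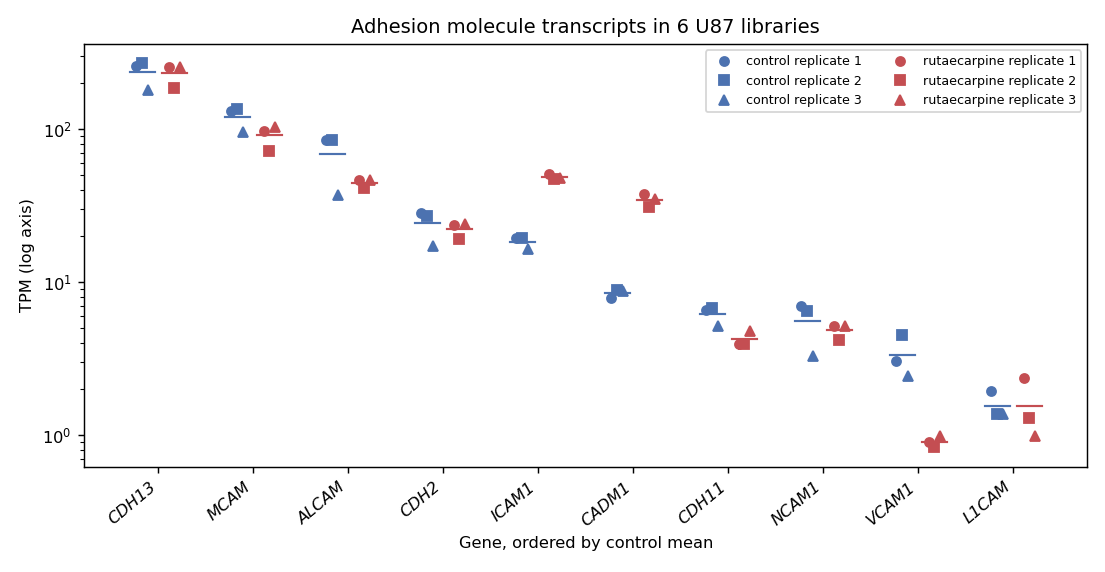
TPM of each adhesion molecule on a log axis in the 3 control libraries (blue) and the 3 rutaecarpine libraries (red), with the mark shape giving the replicate and the line giving the group mean. CADM1 and ICAM1 lie higher in all 3 treated libraries, VCAM1 and CDH11 lie lower, and control replicate 3 lies under the other controls for ALCAM, CDH2 and NCAM1.

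The groups were compared with limma on log2(TPM + 1), with Benjamini-Hochberg adjustment over all genes tested. All 10 genes passed the filter, which asked for 3 or more libraries with 1 TPM or more. VCAM1 passed it only through the control libraries, where it was higher, so its entry into the test depended on its difference. At an adjusted p of at most 0.05, 2 of the 10 rose and 1 fell, against 4.6% of all genes tested that rose and 4.68% that fell. All 3 called genes moved by more than 1 on the log2 scale, and 2.01% of all genes tested met both criteria upward and 1.5% downward. The rutaecarpine libraries lay wholly above the controls for 2 genes and wholly below for 2, where this held for 19.3% and 14% of all genes tested. The median log2 fold change of the 10 genes was -0.11 and that of all genes tested was 0.08, and without control replicate 3 these medians were -0.36 and -0.01. With 3 libraries against 3, an exact permutation test of a single gene cannot give a p below 0.1, so the calls depend on limma's shared estimate of the spread. In bulk RNA, fewer cells with a transcript and less of it in each cell cannot be told apart.

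**Figure D2:**
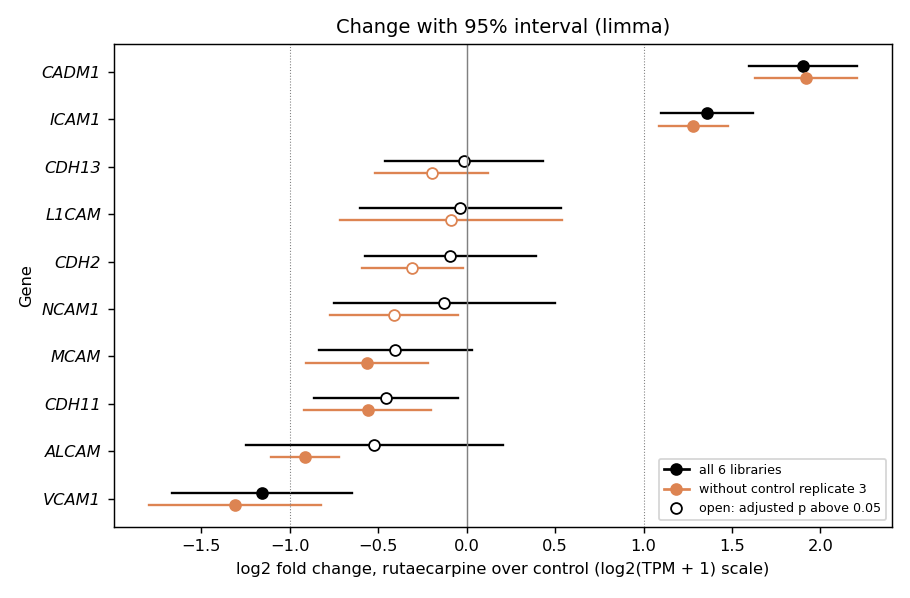
Log2 fold change of rutaecarpine over control on the log2(TPM + 1) scale with its 95% interval from limma, with all 6 libraries (black) and without control replicate 3 (orange). Filled marks have an adjusted p of at most 0.05, and dotted lines mark a log2 fold change of 1 in either direction. CADM1, ICAM1 and VCAM1 are filled in both fits, while ALCAM, MCAM and CDH11 are filled only without control replicate 3.

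The largest change was the rise of CADM1 (ENSG00000182985; chromosome 11, 115169218 to 115504957, minus strand, on GRCh38 in GENCODE release 29). CADM1 encodes a nectin-like molecule that joins epithelial and neural cells and was first described as a tumour suppressor of lung cancer. Its TPM was 7.82, 8.92 and 8.69 in control replicates 1 to 3 and 37.7, 30.8 and 35.0 in rutaecarpine replicates 1 to 3. All treated libraries lay far above all controls, and control replicate 3 lay within the range of the other 2. The ratio of the mean TPM was 4.07. By limma the log2 fold change was 1.90 ± 0.13 (SE), with a Benjamini-Hochberg adjusted p of 0.000463, and by size this ranked 89 among all genes tested. Fits that dropped 1 library gave log2 fold changes from 1.84 to 1.98, and CADM1 was called in all 6 of them. The fit without control replicate 3 gave 1.92 (adjusted p = 0.000142 by limma).

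ICAM1 (ENSG00000090339; chromosome 19, 10270835 to 10286615, plus strand), the ligand of the leukocyte integrin LFA-1, rose next. Its TPM was 19.3, 19.5 and 16.4 in control replicates 1 to 3 and 50.8, 47.1 and 48.1 in rutaecarpine replicates 1 to 3. The replicates were close in both groups, and the groups did not overlap. By limma the log2 fold change was 1.36 ± 0.11 (SE), with a Benjamini-Hochberg adjusted p of 0.000874 and 1.28 without control replicate 3. ICAM1 was called in all 6 fits that left out a library. Both antisense genes annotated across ICAM1 stayed at or below 0.32 TPM. ICAM1 and VCAM1 are among the migration-related genes that the study selected from these same libraries, so their directions here are not independent evidence.

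VCAM1 (ENSG00000162692; chromosome 1, 100719742 to 100739045, plus strand), the endothelial ligand of the integrin VLA-4, went the other way. Its TPM was 3.03, 4.52 and 2.43 in control replicates 1 to 3 and 0.90, 0.83 and 0.98 in rutaecarpine replicates 1 to 3. All 3 treated libraries were under 1 TPM and below every control, though the controls spread widely at this low level. By limma the log2 fold change was -1.16 ± 0.22 (SE), with a Benjamini-Hochberg adjusted p of 0.0188. The call was less stable than those of CADM1 and ICAM1, as it held in 1 of the 6 fits that left out a library, the fit without control replicate 3, where the log2 fold change was -1.31 (adjusted p = 0.00559 by limma). In the other 5 fits it was between -1.19 and -0.97 with an adjusted p between 0.0531 and 0.0825 by limma. Within a library, where scaling cancels, ICAM1 was 6.38, 4.32 and 6.73 times VCAM1 in control replicates 1 to 3. It was 56.4, 56.8 and 49.1 times VCAM1 in rutaecarpine replicates 1 to 3. ICAM1 thus exceeded VCAM1 in each library of both groups. The size of the treated ratios is uncertain, as VCAM1 was under 1 TPM there and read numbers are not known.

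The promoters of ICAM1 and VCAM1 are shown because these genes share an inflammatory regulator and moved in opposite directions. Each line gives the 250 bases before the transcription start from RefSeq on GRCh38.p14, plus strand, at chr19:10270870-10271119 for ICAM1 and chr1:100719492-100719741 for VCAM1. Capitals mark matches on either strand to GGNNTTTCC, a form of the NF-kappaB site. Other forms of the site were not searched for and stay in lower case.
ICAM1: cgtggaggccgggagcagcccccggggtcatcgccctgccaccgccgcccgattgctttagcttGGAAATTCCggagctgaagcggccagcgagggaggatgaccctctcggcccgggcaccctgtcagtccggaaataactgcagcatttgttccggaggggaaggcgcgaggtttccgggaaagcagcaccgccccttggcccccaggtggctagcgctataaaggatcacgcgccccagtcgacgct
VCAM1: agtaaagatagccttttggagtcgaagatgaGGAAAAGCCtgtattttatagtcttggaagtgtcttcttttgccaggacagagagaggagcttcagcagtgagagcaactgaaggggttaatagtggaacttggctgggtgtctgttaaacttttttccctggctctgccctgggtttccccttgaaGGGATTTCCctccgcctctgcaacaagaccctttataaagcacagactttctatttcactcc

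The ICAM1 match (GGAAATTCC) begins at base -186 from the start, and the VCAM1 matches (GGAAAAGCC and GGGATTTCC) begin at bases -219 and -62. The ICAM1 stretch had a GC content of 66.0% and the VCAM1 stretch 46.0%. RefSeq windows of 300 bases (250 before and 50 after the start) were matched by symbol for 6 of the 10 genes, ICAM1, VCAM1, ALCAM, MCAM, CDH2 and L1CAM. A match to GGNNTTTCC was found for ICAM1, VCAM1 and 1 of the CDH2 windows (GGCATTTCC, beginning at base -16), and 6.26% of all 35116 windows held a match. The core of the aryl hydrocarbon receptor response element that the study searched for, TNGCGTG on either strand, was in none of the windows of these 6 genes and in 5.51% of all windows. The study searched a much longer stretch, upstream of each coding sequence, so these windows do not repeat its search. A match or its lack describes the letters of this window only.

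ALCAM (ENSG00000170017; chromosome 3, 105366909 to 105576900, plus strand), which binds itself and CD6 and is known as a marker of mesenchymal and tumour stem cells, turned on a single library. Its TPM was 85.5, 84.6 and 37.1 in control replicates 1 to 3 and 46.4, 41.4 and 46.3 in rutaecarpine replicates 1 to 3. Control replicate 3 lay below all treated libraries and the other 2 controls lay well above them. With all libraries the log2 fold change was -0.52 (95% interval -1.25 to 0.21, Benjamini-Hochberg adjusted p = 0.354 by limma). Without control replicate 3 it was -0.91 (95% interval -1.11 to -0.72) with an adjusted p of 0.000521 by limma. Relative to CDH13 in the same library, ALCAM in control replicate 3 was at 0.206, within the treated range of 0.182 to 0.222, while the other controls were at 0.313 and 0.333, so this scaling did not bring that library to the other controls.

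MCAM (ENSG00000076706; chromosome 11, 119308529 to 119321521, minus strand), an adhesion molecule of melanoma and vessel cells, was lower on average after rutaecarpine. Its TPM was 131, 136 and 95.5 in control replicates 1 to 3 and 97.2, 72.4 and 104 in rutaecarpine replicates 1 to 3. The groups overlapped through control replicate 3. The log2 fold change was -0.40 (95% interval -0.84 to 0.03, Benjamini-Hochberg adjusted p = 0.237 by limma), and -0.56 with an adjusted p of 0.0366 by limma without that library. Relative to CDH13, MCAM was between 0.505 and 0.531 in the controls and between 0.382 and 0.409 in the treated libraries, and these ranges did not overlap. On that scale, which was added after the data were seen, 9.22% of all genes lay wholly below the controls. CBL, on the opposite strand, is annotated across part of MCAM and had 3.14 to 8.87 TPM, and whether the counting used strand is not given in the sources used here.

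NCAM1 (ENSG00000149294; chromosome 11, 112961247 to 113278436, plus strand), the neural cell adhesion molecule that binds itself between neural cells, was at 7.02, 6.45 and 3.28 TPM in control replicates 1 to 3. It had 5.19, 4.18 and 5.14 TPM in rutaecarpine replicates 1 to 3, so the treated libraries lay between control replicate 3 and the other controls. The log2 fold change was -0.13 (95% interval -0.75 to 0.50) with all libraries and -0.41 (95% interval -0.77 to -0.05, adjusted p = 0.115 by limma) without control replicate 3. L1CAM (ENSG00000198910; chromosome X, 153861514 to 153886174, minus strand), a neurite outgrowth molecule linked to glioma invasion, was scarce in both groups. Its TPM was 1.93, 1.38 and 1.37 in control replicates 1 to 3 and 2.36, 1.29 and 0.99 in rutaecarpine replicates 1 to 3. Its groups overlapped, and its log2 fold change of -0.04 had a 95% interval from -0.60 to 0.53 (-0.09, interval -0.72 to 0.54, without control replicate 3).

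Among the cadherins, none passed the test with all 6 libraries. CDH13 (ENSG00000140945; chromosome 16, 82626803 to 83800640, plus strand) was at 257, 270.2 and 180.0 TPM in control replicates 1 to 3 and 255, 187 and 254 in rutaecarpine replicates 1 to 3. Each group had 1 low library, and the log2 fold change was -0.02 (95% interval -0.46 to 0.43, Benjamini-Hochberg adjusted p = 0.969 by limma), and -0.20 (adjusted p = 0.369 by limma) without control replicate 3. An antisense gene inside CDH13, AC009119.1, had 66.3 TPM in control replicate 3 and 0.11 to 1.71 TPM in the other 5 libraries. CDH2 (ENSG00000170558; chromosome 18, 27950966 to 28177446, minus strand), N-cadherin, was at 28.1, 27.2 and 17.3 TPM in control replicates 1 to 3 and 23.6, 19.1 and 24.1 in rutaecarpine replicates 1 to 3. The groups overlapped, with a log2 fold change of -0.09 (95% interval -0.58 to 0.39) and of -0.31 (95% interval -0.59 to -0.02, adjusted p = 0.132 by limma) without control replicate 3.

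CDH11 (ENSG00000140937; chromosome 16, 64943753 to 65126112, minus strand), the cadherin of bone-forming and mesenchymal cells, was the cadherin whose groups were apart. Its TPM was 6.53, 6.81 and 5.19 in control replicates 1 to 3 and 3.92, 3.96 and 4.78 in rutaecarpine replicates 1 to 3. All treated libraries lay below all controls, by a small margin to control replicate 3. The log2 fold change was -0.46 (95% interval -0.86 to -0.05, Benjamini-Hochberg adjusted p = 0.162 by limma) and it did not pass. It passed without control replicate 3 (-0.56, adjusted p = 0.0438 by limma) and after median centring of the libraries (-0.55, adjusted p = 0.0449 by limma). CDH1 had at most 0.86 TPM in any library and was not tested, so these cells held N-cadherin and T-cadherin transcripts with little E-cadherin in either group.

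Without control replicate 3, 2 of the 10 genes rose and 4 fell, the latter being VCAM1, ALCAM, MCAM and CDH11. In that fit 8.2% of all genes tested rose and 10.3% fell. Dividing each gene by CDH13, the most abundant of the 10, removes any factor common to a library and was added after the data were seen. On that scale ICAM1 and CADM1 lay wholly above the controls, and VCAM1, MCAM and CDH11 lay wholly below, out of 9 genes. Of all genes, 20.8% lay wholly above and 9.22% wholly below on the same scale. The ratio to CDH13 shows unequal change only and does not say which of the pair moved. In control replicate 3 an antisense gene inside CDH13, AC009119.1, had 66.3 TPM. Whether it affected the CDH13 value of that library was not tested.

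**Figure D3:**
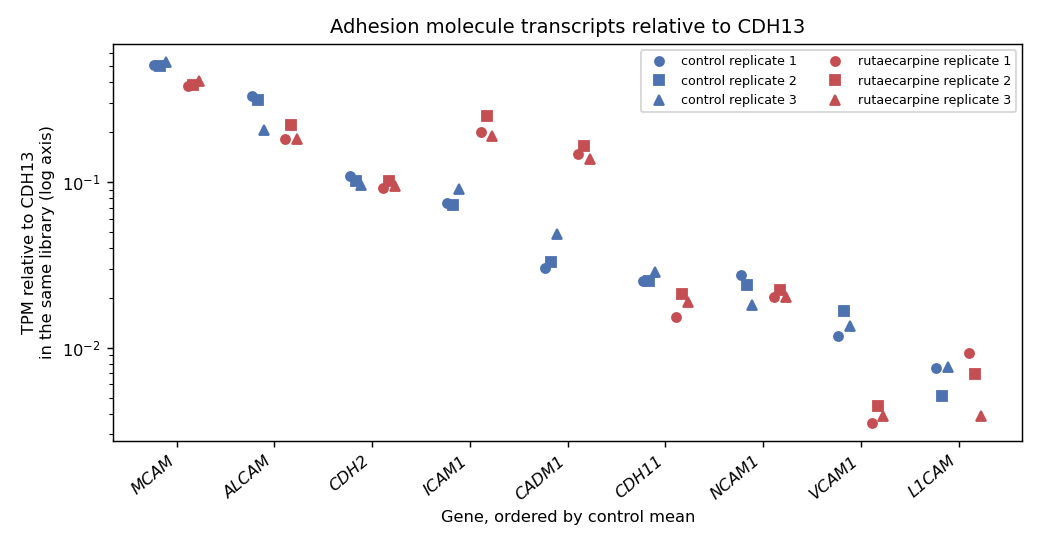
TPM of 9 adhesion molecules divided by the TPM of CDH13 in the same library, on a log axis, for 3 control (blue) and 3 rutaecarpine (red) libraries with the mark shape giving the replicate. MCAM is between 0.505 and 0.531 in the controls and between 0.382 and 0.409 after rutaecarpine, while ALCAM in control replicate 3 lies with the treated libraries.

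Other genes of these families and their partners are given next, each list beside the 4.6% of all genes tested that rose and the 4.68% that fell, or the 8.2% and 10.3% without control replicate 3. Of 50 other immunoglobulin-family adhesion genes, 26 were tested, 2 rose and 2 fell, with a median log2 fold change of -0.04. In the fit lacking control replicate 3, 3 rose and 6 fell, with a median of -0.12. ICAM5, which encodes telencephalin, a neuronal relative of ICAM1, rose from 23.9 ± 4.87 to 46.2 ± 4.54 TPM (log2 fold change 0.94, adjusted p = 0.0169 by limma). ICAM1, ICAM4 and ICAM5 lie side by side on the plus strand of chromosome 19, with gaps of 351 and 1458 bases between the annotated genes. ICAM4, between ICAM1 and ICAM5, had at most 0.58 TPM in any library, so the pair that rose flanks a gene with hardly any transcript. ICAM3 lies 36997 bases past ICAM5 on the minus strand and did not rise. It had 5.43 ± 2.77 and 3.92 ± 1.33 TPM (log2 fold change -0.31, adjusted p = 0.667 by limma). MPZL1 rose from 40.5 ± 4.81 to 65.5 ± 9.54 TPM. BCAM, a laminin receptor, fell from 9.08 ± 0.55 to 3.82 ± 0.30 TPM (log2 fold change -1.06), and PTK7, a pseudokinase of WNT signalling, fell from 34.2 ± 2.59 to 24.1 ± 1.75 TPM. CLMP, a tight-junction relative of the coxsackievirus receptor, had 53.0 ± 21.2 and 111 ± 11.2 TPM and an adjusted p of 0.0681 by limma, and 0.00219 without control replicate 3. Of the 4 called genes, BCAM was called in 6 of 6 fits that dropped a library, ICAM5 in 3, MPZL1 in 2 and PTK7 in 1. BSG (basigin) was the most abundant of the list at 905 ± 107 and 796 ± 22.4 TPM, with an adjusted p of 0.312 by limma.

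Of 50 other cadherins and protocadherins, 18 were tested, 1 rose and 2 fell, with a median log2 fold change of -0.14, and without control replicate 3, 1 rose and 4 fell with a median of -0.38. PCDH1, a protocadherin of airway and vessel cells, rose from 0.74 ± 0.29 to 3.41 ± 0.37 TPM (log2 fold change 1.35, adjusted p = 0.00623 by limma). Its control libraries were at 0.56, 0.59 and 1.08 TPM, so it passed the filter only through the treated libraries and its entry into the test depended on its difference. PCDH18 fell from 6.65 ± 2.29 to 1.89 ± 0.31 TPM (log2 fold change -1.36) and CDH24 from 10.6 ± 1.09 to 5.58 ± 0.82 TPM. CLSTN1 (calsyntenin) was the most abundant at 106 ± 8.74 and 101 ± 6.22 TPM, and it did not pass. PCDH1 was called in 6 of 6 fits that dropped a library, while PCDH18 and CDH24 were called in 1, the fit without control replicate 3.

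Inside the cell, cadherins bind catenins and several immunoglobulin-family molecules bind ezrin, radixin, moesin, ankyrin or spectrin. Of 28 such linkers, 23 were tested, none rose at an adjusted p of at most 0.05 by limma (2 had an unadjusted p under 0.05 and were higher) and 3 fell, with a median log2 fold change of 0.01 (-0.29 without control replicate 3). These were ACTN4, an actin crosslinker, from 271 ± 16.8 to 170.0 ± 24.5 TPM, CTNNAL1, a relative of alpha-catenin, from 94.8 ± 8.94 to 55.7 ± 1.93 TPM, and SPTAN1, a spectrin, from 127 ± 3.67 to 97.4 ± 9.36 TPM. CTNNAL1 was called in 6 of 6 fits that dropped a library, ACTN4 in 3 and SPTAN1 in 1. CTNNB1 (beta-catenin) was at 216 ± 60.1 and 212 ± 9.78 TPM, with a wide control spread. Without control replicate 3, 10 of the 23 fell and 0 rose by limma (2 of the 23 were higher with an unadjusted p under 0.05), against the 10.3% and 8.2% of all genes, so the count of this list depended on that library. In that fit VCL (vinculin) had a log2 fold change of -0.91 (adjusted p = 0.0069 by limma), against -0.62 (adjusted p = 0.204 by limma) with all libraries.

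Of 15 sheddases and polysialylation genes, which cut or modify adhesion molecules at the surface, 13 were tested and 1 fell, with a median log2 fold change of -0.14, and without control replicate 3, 1 rose and 4 fell with a median of -0.20. This was ADAM15, from 61.4 ± 1.47 to 36.1 ± 1.91 TPM (log2 fold change -0.75, adjusted p = 0.00343 by limma), and it was called in 6 of 6 fits that dropped a library. ADAM17, the sheddase of ICAM1 and VCAM1, had 19.2 ± 7.77 and 35.7 ± 3.38 TPM and an adjusted p of 0.112 by limma, which became 0.0092 without control replicate 3. ADAM9, the most abundant, was at 163 ± 62.1 and 145 ± 12.1 TPM, and control replicate 3 had 91.5 TPM against 199 in each of the other controls. None of the 13 rose at an adjusted p of at most 0.05 by limma with all libraries, and 1 was higher with an unadjusted p under 0.05.

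Of 15 counter-receptors, 8 were tested and 1 rose, with a median log2 fold change of 0.34. The median was 0.04 without control replicate 3, where 1 rose and 1 fell. ITGB3, the beta 3 integrin that binds L1CAM, rose from 29.9 ± 9.81 to 62.8 ± 10.9 TPM (log2 fold change 1.09, adjusted p = 0.0487 by limma), and without control replicate 3 its log2 fold change was 0.79 (adjusted p = 0.0102 by limma). In the other 5 fits that dropped a library ITGB3 was not called, and it was called in 4 of the 14 alternatives tried. ITGB3 is also on the study's list of migration-related genes. Of the leukocyte integrin chains that bind ICAM1, ITGB2 was at no more than 0.03 TPM, ITGAL at no more than 0.47 TPM and ITGAM at no more than 0.54 TPM. ITGAX was at 8.44, 9.89 and 7.61 TPM in control replicates 1 to 3 and 11.8, 10.9 and 10.8 TPM in rutaecarpine replicates 1 to 3, groups that did not overlap, with an adjusted p of 0.216 by limma. ITGA4, the chain that binds VCAM1, was at 1.91 ± 0.87 and 1.73 ± 0.60 TPM. ITGA5, which binds fibronectin, was the most abundant at 537 ± 24.7 and 685 ± 76.2 TPM, with an adjusted p of 0.0818 by limma.

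The transcription factors of the SNAIL, TWIST and ZEB families repress E-cadherin when cells change from an epithelial to a mesenchymal form. Of 6 such factors, 5 were tested, 2 rose and 0 fell, with a median log2 fold change of 0.75. Without control replicate 3, 2 rose and 0 fell, with a median of 0.22. SNAI2 (SLUG) rose from 52.8 ± 8.44 to 92.1 ± 5.26 TPM (log2 fold change 0.80, adjusted p = 0.012 by limma). The call of SNAI2 was lost without rutaecarpine replicate 1 or 3, with an adjusted p of up to 0.0649 by limma. TWIST2 rose from 0.51 ± 0.20 to 1.74 ± 0.32 TPM (log2 fold change 0.86, adjusted p = 0.0336 by limma), a low level that reached the filter only in treated libraries. TWIST2 was called in 1 of the 6 fits that dropped a library, the fit without control replicate 3. Its call was also lost after median centring of the libraries and with no filter on low TPM. It was called in 5 of the 13 alternatives in which it was tested. ZEB2, the most abundant by its mean over all 6 libraries, was at 60.6 ± 30.6 and 92.1 ± 12.2 TPM and did not pass, with 25.3 TPM in control replicate 3.

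**Figure D4:**
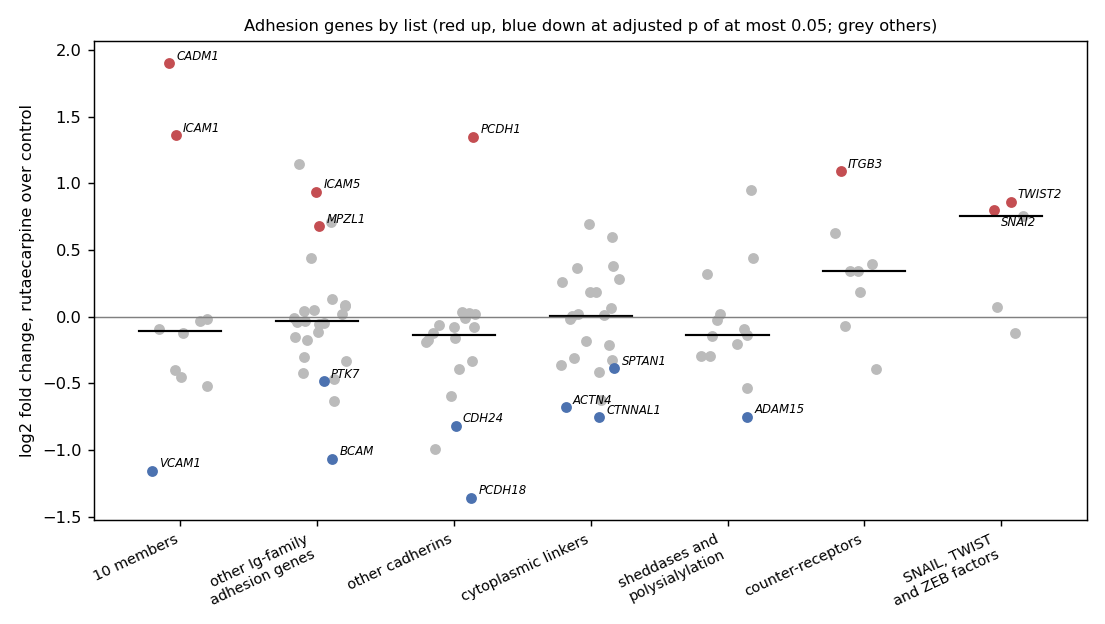
Log2 fold change of rutaecarpine over control for the tested genes of each adhesion list, 1 point per gene, with the list's median as a black line. Red and blue points rose or fell at an adjusted p of at most 0.05 with all 6 libraries and are named, and the medians of the 10 molecules and of the other immunoglobulin-family genes were -0.11 and -0.04.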

How the data were processed

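The authors extracted RNA from U87 cells with a GeneJET kit, sequenced the fragments (Illumina NovaSeq) and used RSEM to quantify genes. The submitters' notes name GRCh38.p13. The aligner, annotation and library strand are not given in the sources used here. The values the authors deposited are TPM, so depth is unknown, no counting error can be given, and the count methods named in the study's methods (DESeq2, edgeR) were not used. All 6 value columns matched a sample, and 0 were left out.

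TPM were transformed to log2(TPM + 1), which understates changes of weakly expressed genes. The 14377 genes that reached 1 TPM in 3 or more libraries were compared with limma 3.58.1 in R 4.3.3 (mean-variance trend, two-sided, Benjamini-Hochberg adjustment). A call is an adjusted p of at most 0.05. The procedure was tested on simulated data, with noise drawn independently for each gene and library. That simulation held no shift of a whole library such as that of control replicate 3. Genes without a name in the table were looked up by Ensembl identifier. Positions came from GENCODE release 29. Fits that left out a library kept the same genes.

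The 10 genes and the gene lists were chosen with earlier results of these data known. Besides the 10, the genes named are the called genes of each list, at most 8 by size of change, and its most abundant gene. Other markers of the line and of leukocytes are also named, as is CBL, which is annotated across part of MCAM. CLMP, VCL, CTNNB1, ADAM17, ICAM3, ICAM4, CDH1, ITGA4, ITGAL, ITGAM, ITGAX, ITGB2, SNAP25, GAD1 and AC009119.1 were added once their values had been seen. Alternatives were median centring, no trend, no or a stricter filter, a pseudocount of 0.1, the replicate number as a block, library weights, robust moderation and leaving out each library.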

Additional observations from a re-analysis of the deposited data

How the results depend on the processing

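CADM1 and ICAM1 kept their direction and their call under all 14 alternatives tried. The number of the 10 adhesion molecules that fell was 1 and moved to 2 after median centring (VCAM1 and CDH11), to 4 with library weights, and to 0 with no filter on low TPM, with a filter of 1 TPM in each library (which leaves VCAM1 untested) and with the replicate number as a block. Those that were called with a log2 fold change under -1 numbered 1, and 0 with no filter, with the stricter filter and with the block. Leaving out each library gave 0 to 4 that fell and 0 to 1 that were called with a log2 fold change under -1. Over all genes, 662 rose and 673 fell. With no filter 439 fell, with the block 236 rose and 192 fell, with library weights, where control replicate 3 had a weight of 0.12, 1935 rose and 2027 fell, and leaving out each library gave 278 to 1179 that rose and 261 to 1487 that fell, most without control replicate 3.

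Same-numbered libraries did not deviate together (correlations across genes of 0.116, -0.266 and -0.215), and no library correlated best with its own number, so the pairing is by number alone. Under the replicate block VCAM1 kept its log2 fold change of -1.16 but had an adjusted p of 0.0883 by limma. SNAI2 (0.0598), TWIST2 (0.114) and ITGB3 (0.129) also lost their call. So did PCDH18 (0.0603), BCAM (0.0658), ACTN4 (0.0797), MPZL1 (0.112), CDH24 (0.118), OLIG2 (0.124), PTK7 (0.148), SPTAN1 (0.152) and NES (0.174). ICAM5, PCDH1, CTNNAL1, ADAM15 and VIM kept theirs, with an adjusted p between 0.0388 and 0.0493 by limma. The log2 fold changes that changed sign in an alternative were small with all 6 libraries, from -0.13 (NCAM1) to -0.02 (CDH13). That of L1CAM was 0.0467 with library weights and -0.25 to 0.12 on leaving out each library, that of NCAM1 -0.41 to 0.043, that of CDH2 -0.31 to 0.0269 and that of CDH13 -0.20 to 0.13. The cause of these shifts was not tested, and TPM without read numbers limit what can be said of VCAM1 and L1CAM.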

Other observations

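Of the 7 genes used to describe the cell line, 5 were tested. VIM, the intermediate filament of mesenchymal cells, fell from 7498 ± 499 to 4857 ± 381 TPM (adjusted p = 0.00894 by limma with Benjamini-Hochberg adjustment), lower in 3 of 3 treated libraries. NES (nestin), a filament of neural progenitors, fell from 19.5 ± 2.01 to 13.2 ± 0.75 TPM, and OLIG2, a factor of the oligodendrocyte lineage, rose from 1.59 ± 0.13 to 3.63 ± 0.52 TPM. Without control replicate 3 the log2 fold changes were -0.68 for VIM, -0.62 for NES and 0.87 for OLIG2. VIM was called in 5 of the 6 fits that dropped a library, and NES and OLIG2 in 1, the fit without control replicate 3. Neither VIM nor OLIG2 was called after median centring of the libraries or with no filter on low TPM. NES was not called with no filter, with the stricter filter or with robust moderation. CD44, the hyaluronan receptor, was at 655 and 756 TPM and did not pass. Of 5 neuronal markers, 3 were tested and none passed by limma with all 6 libraries (1 higher and 1 lower with an unadjusted p under 0.05). Without control replicate 3, SNAP25 had a log2 fold change of -0.72 (adjusted p = 0.00397 by limma) and GAD1 of 0.50 (adjusted p = 0.0419 by limma).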
